A study of Mus musculus with 10 samples.

Results

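Oxysterols are cholesterol molecules that carry an added hydroxyl group, and the genes examined here make, break down, bind or respond to them. The set held 7 genes, taken by name from the 29700 rows of the count table left after circular RNAs were set aside. Ch25h, Cyp27a1, Cyp7b1 and Hsd3b7 encode enzymes, Gpr183 encodes a cell-surface receptor, and Osbp and Osbpl8 encode sterol-binding lipid transfer proteins. The rule that names the genes uses their function and no measured value, though it was written with earlier results of these data known.

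RNA was sequenced from thioglycollate-elicited peritoneal macrophages of C57BL/6 mice aged 8 weeks, with 5 libraries in each of 2 groups. The control group was labelled untreated. The ox-LDL group was primed with lipopolysaccharide (LPS, the endotoxin of Gram-negative bacteria) at 100 ng/ml and then given oxidized low-density lipoprotein (ox-LDL) at 100 µg/ml for 16 h. By these labels LPS was given to the ox-LDL group alone, so the effects of LPS and of ox-LDL cannot be told apart, and every difference below is then one of the combined treatment. A general treatment note attached to all 10 libraries names ox-LDL, and the study's own wording leaves room for controls that received LPS as well, in which case the differences would belong to ox-LDL alone. The group labels were followed. Levels of LPS-inducible genes in both groups are given below, and whether the controls received LPS was not tested. Nothing in the labels states whether the 5 libraries of a group came from separate mice or cultures, so the p-values measure the spread between these libraries.

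In macrophages, Ch25h and Cyp27a1 each place a hydroxyl group on the side chain of cholesterol, Ch25h in the endoplasmic reticulum and Cyp27a1 in mitochondria. Cyp7b1 then hydroxylates the sterol ring system, which yields the main ligand of Gpr183 when the starting oxysterol came from Ch25h. Hsd3b7 oxidizes that ligand further and so removes it, and the same steps feed the acidic pathway of bile acid synthesis. Gpr183, also called EBI2, is a chemotactic receptor that guides B cells, dendritic cells and other leukocytes along oxysterol gradients. Osbp exchanges cholesterol for a phosphoinositide at contacts between the endoplasmic reticulum and the Golgi, and Osbpl8 (ORP8) is anchored in the endoplasmic reticulum and transfers phosphatidylserine at contacts with the plasma membrane.

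Total counts per library were 20094647 to 20687289 in controls and 19257131 to 20358017 in the ox-LDL group. Macrophage markers (6 of 6 with counts) summed to 23074 to 42709 CPM (counts per 1000000 counts of the library) in controls and 13280 to 28217 CPM in the ox-LDL group, against at most 91.7 CPM for any of the 6 lists of other cell types. Lyz2 had the most counts of these markers in every library, 408842 to 808562 in controls and 180988 to 519594 in the ox-LDL group. Adgre1 (3521 to 6987 and 8048 to 37870 counts) and Cd14 (1542 to 2078 and 3927 to 13882) were higher in every ox-LDL library than in any control. Cd68, Csf1r and Itgam overlapped between the groups. Genes used as references for LPS and interferon responses were low in controls 1 to 4 and higher in control 5. The LPS-inducible sum was 11.8 to 22.8 CPM in controls 1 to 4, 122 CPM in control 5 and 2676 to 13507 CPM in the ox-LDL group. The interferon-stimulated sum was 46.7 to 74.2, 186 and 1214 to 4093 CPM in the same order. Ox-LDL replicate 2 stood apart by composition, with a TMM scaling factor of 0.593 against 0.837 to 1.19 in the other 9 libraries, and its genes under 1000 bases lay at a median of 1.33 above their mean over the 10 libraries on the log2(CPM + 1) scale. Several results in which ox-LDL replicate 2 or control replicate 5 stood apart are given with and without that library. In these bulk samples, fewer cells of a type and less RNA per cell cannot be told apart.

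The promoters of Ch25h, Hsd3b7 and Gpr183 are printed, since these genes of synthesis, breakdown and sensing differed between the groups without overlap in the values given further on. RefSeq promoters on build GRCm38.p6 were found for 6 of the 7 genes, each covering 250 bases before to 50 bases after the start of the gene, and were searched on both strands for 5 short motifs. Capitals mark a motif match. Ch25h and Gpr183 lie on the minus strand and are printed in the direction of transcription.
Ch25h (GRCm38.p6, chr19:34475099-34475398, minus strand, TATA box in capitals): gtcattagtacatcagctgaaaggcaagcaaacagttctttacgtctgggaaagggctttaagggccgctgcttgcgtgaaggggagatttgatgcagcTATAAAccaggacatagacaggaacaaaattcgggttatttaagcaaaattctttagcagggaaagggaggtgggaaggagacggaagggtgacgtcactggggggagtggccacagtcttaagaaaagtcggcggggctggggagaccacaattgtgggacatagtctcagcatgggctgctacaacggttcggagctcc
Hsd3b7 (GRCm38.p6, chr7:127800359-127800658, plus strand, GAS element in capitals): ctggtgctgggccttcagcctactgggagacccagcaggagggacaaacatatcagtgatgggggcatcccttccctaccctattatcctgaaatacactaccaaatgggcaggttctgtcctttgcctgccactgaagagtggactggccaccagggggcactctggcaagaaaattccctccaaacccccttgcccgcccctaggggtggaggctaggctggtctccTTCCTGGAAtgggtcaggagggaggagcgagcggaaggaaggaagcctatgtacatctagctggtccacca
Gpr183 (GRCm38.p6, chr14:121965144-121965443, minus strand, no match): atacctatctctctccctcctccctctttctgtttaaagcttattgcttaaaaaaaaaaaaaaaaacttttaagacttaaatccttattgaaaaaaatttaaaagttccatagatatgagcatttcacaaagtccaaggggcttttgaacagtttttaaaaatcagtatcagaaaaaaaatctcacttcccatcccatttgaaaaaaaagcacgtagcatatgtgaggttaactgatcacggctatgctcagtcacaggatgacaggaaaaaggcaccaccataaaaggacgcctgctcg

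Only 2 matches were found in the 6 promoters. Ch25h held the TATA box letters TATAAA starting at position -151 from the gene start, and 13.6% of the 32851 promoters searched hold them. Hsd3b7 held a GAS element, the letters TTCNNNGAA, starting at position -21, and 8.30% of all promoters hold one. The interferon-stimulated response element core GAAANNGAA, the kB core GGGANTTTC and the AP-1 letters TGANTCA were in none of the 6 windows, against 8.56%, 1.11% and 7.81% of all promoters. None of these matches shows that a factor binds. The windows differed in base composition. G and C made up 35.3% of the Gpr183 window, lower than in all but 3.98% of promoters, and 72.7% and 67.0% of the Osbpl8 and Osbp windows. Ch25h, Cyp27a1 and Hsd3b7 had 51.0%, 55.3% and 57.7%, near the median of 52.7% over all promoters.

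Gene expression was compared to ask which oxysterol genes differ between the control group and the group labelled as given LPS and ox-LDL. Of the 7 genes, 6 passed the filter on low counts, and Ch25h did not. A gene was called at a Benjamini-Hochberg adjusted p below 0.01 in edgeR's quasi-likelihood test over 12654 genes. Hsd3b7 was called higher in the ox-LDL group, Cyp27a1 and Gpr183 were called lower, and Cyp7b1, Osbpl8 and Osbp were not called. Over all genes tested, 9.4% were called higher and 5.35% lower. Both lower genes also passed a log2 fold change below -2, which 1.93% of all genes did. The groups did not overlap for Hsd3b7, which lay above all controls as 11.6% of all genes did, nor for Cyp27a1 and Gpr183, which lay below all controls as 9.11% of all genes did. The median log2 fold change was 0.07 over the 6 genes and 0.10 over all genes tested.

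**Figure D1:**
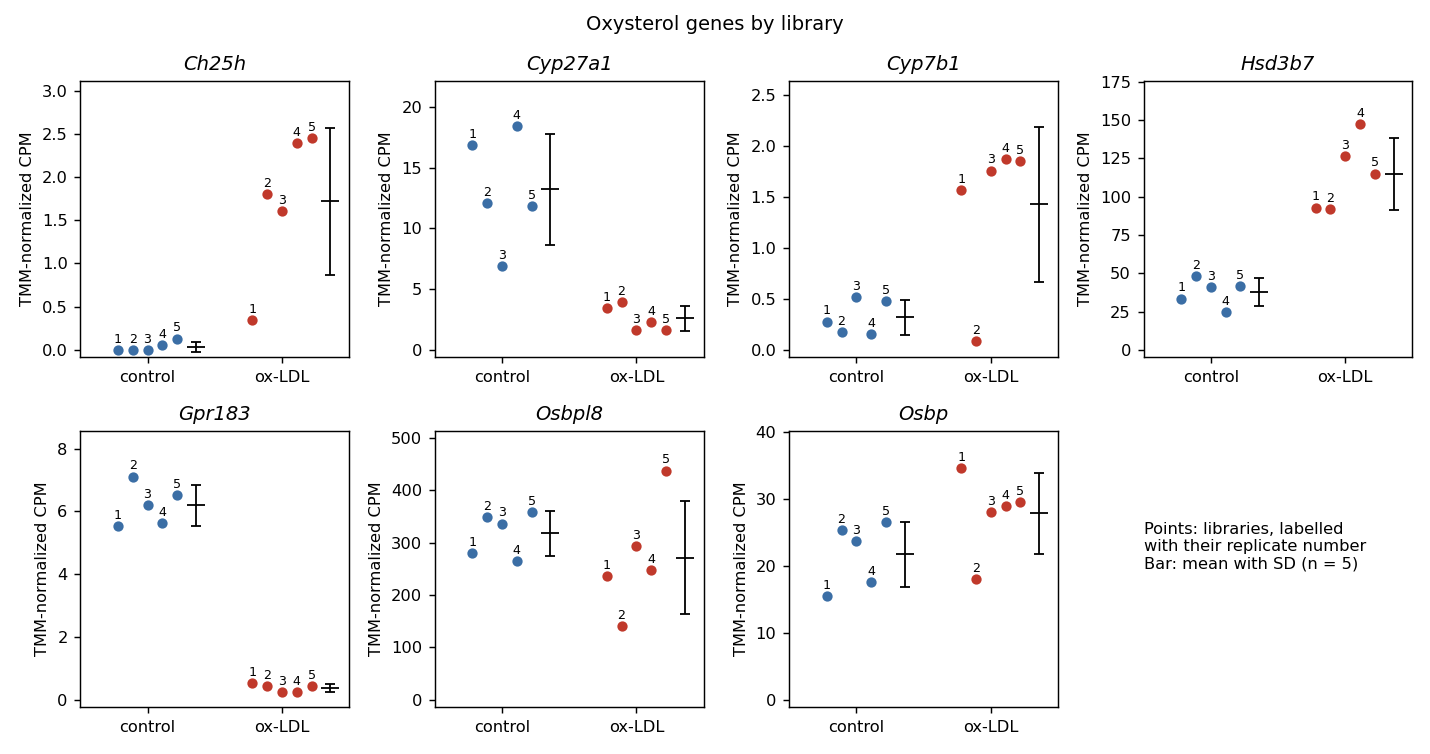
Expression of the 7 oxysterol genes in each library, in TMM-normalized CPM (vertical axis, its range set for each gene). Points are libraries labelled with their replicate number, and bars give the mean with the SD (n = 5). The 2 groups do not overlap for Ch25h, Cyp27a1, Hsd3b7 and Gpr183, and ox-LDL replicate 2 lies far below the other ox-LDL libraries for Cyp7b1.

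Ch25h, which makes the oxysterol known for its antiviral and sterol-lowering actions in macrophages, was nearly absent from controls and present at a low level in the ox-LDL group. Ch25h (NCBI gene 12642) is an intronless gene on the minus strand of mm9 at chr19:34548276-34549625, and the annotated noncoding gene Gm16704 overlaps it on the other strand. Its counts were 0, 0, 0, 1 and 3 in controls 1 to 5 and 8, 21, 33, 50 and 41 in ox-LDL replicates 1 to 5. The groups did not overlap, and ox-LDL replicate 1 was the lowest of the treated libraries. A count of 0 allows up to 0.166, 0.128 and 0.128 CPM in controls 1, 2 and 3. The mean was 0.0364 ± 0.0571 CPM (SD, n = 5) in controls and 1.72 ± 0.849 CPM (SD, n = 5) in the ox-LDL group. On the log2(CPM + 1) scale, which understates changes of low genes, the groups differed by 1.32 (two-sided exact permutation test, p = 0.00794, the smallest that 5 libraries against 5 allow).

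The size of the Ch25h difference is known only loosely because the controls held few counts. Summed over libraries there were 4 counts in controls and 153 in the ox-LDL group, and the ratio scaled for library size was 44.2 (95% exact conditional interval 16.9 to 164, counting error only). Control replicate 5 held 3 of the 4 control counts. Without it the ratio was 139 from 1 control count (interval 24.5 to 5519). Control 5 was also the control with the highest interferon-stimulated and LPS-inducible sums given above, and the part of either in its Ch25h counts was not tested. In a fit without the filter on low counts, the log2 fold change of Ch25h was 5.24 (SE 0.752, edgeR adjusted p = 9.54e-06), and it was 4.93 to 6.50 when each library was left out in turn.

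Cyp27a1, the mitochondrial sterol hydroxylase, was lower in the ox-LDL group. Cyp27a1 (NCBI gene 104086) lies on the plus strand of mm9 at chr1:74760148-74784464. Its levels were 16.9, 12.1, 6.89, 18.4 and 11.8 CPM in controls 1 to 5. In ox-LDL replicates 1 to 5 its levels were 3.44, 3.94, 1.66, 2.30 and 1.61 CPM. The lowest control, replicate 3, was still above the highest ox-LDL library, replicate 2. The mean fell from 13.2 ± 4.58 to 2.59 ± 1.05 CPM (SD, n = 5 each), 5.13-fold lower, with a log2 fold change of -2.36 (SE 0.339, 95% interval -3.10 to -1.62, edgeR adjusted p = 4.17e-04). It was called in all 25 alternative fits, and without ox-LDL replicate 2 the log2 fold change was -2.59.

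The balance between the 2 side-chain hydroxylases was compared within each library. The log2 ratio of Ch25h to Cyp27a1 counts, with 1 added to each, was -8.26, -8.14, -7.34, -7.49 and -6.09 in controls 1 to 5 and -3.15, -1.10, -0.04, 0.06 and 0.58 in ox-LDL replicates 1 to 5. In controls Cyp27a1 had far more counts than Ch25h in every library, while in ox-LDL replicates 3, 4 and 5 the counts of the 2 genes were close. The mean was -7.46 ± 0.864 in controls and -0.73 ± 1.49 in the ox-LDL group (SD, n = 5), a difference of 6.74 (exact permutation p = 0.00794, adjusted over 3 ratios 0.0238). In every ox-LDL library Ch25h was above and Cyp27a1 below all controls. The ratio therefore had to separate the groups, and its p-value adds nothing to the results of the 2 genes. The size of this difference depends on the constant added, since Ch25h was at 0 in 3 controls. It was 7.44 with 0.5 added to the counts and 2.91 with FPKM in place of counts, each with an exact permutation p of 0.00794.

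**Figure D2:**
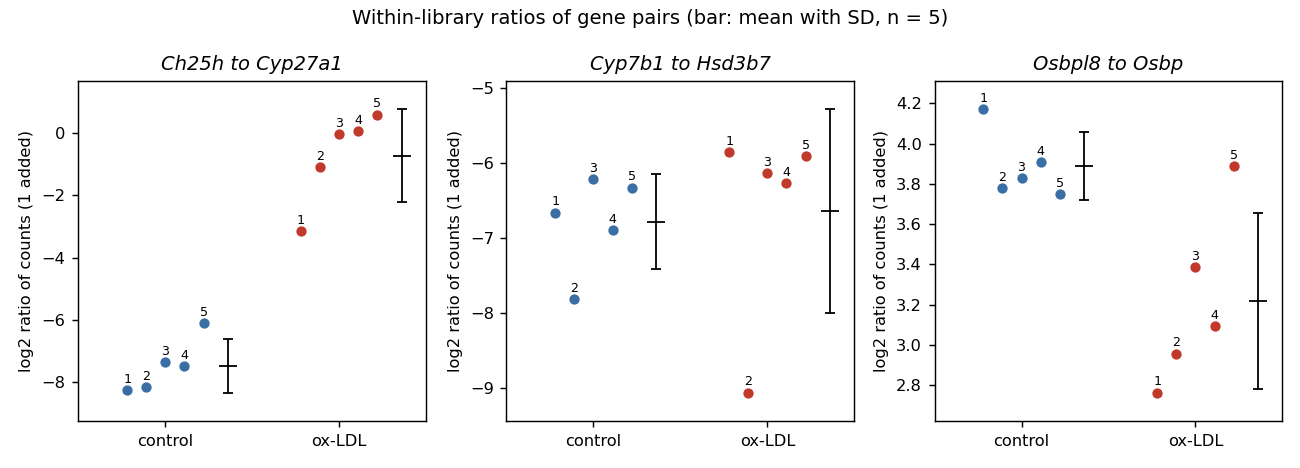
Log2 ratios of the counts of 2 genes within each library (vertical axis, 1 added to each count), by group. Points are libraries labelled with their replicate number, and bars give the mean with the SD (n = 5). Ch25h to Cyp27a1 does not overlap between the groups, Cyp7b1 to Hsd3b7 overlaps, with ox-LDL replicate 2 the lowest of all libraries, and Osbpl8 to Osbp is below the controls in 4 of the 5 ox-LDL libraries.

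Cyp7b1, the hydroxylase that completes the ligand of Gpr183, was expressed at a very low level and did not pass the threshold. Cyp7b1 (NCBI gene 13123) lies on the minus strand of mm9 at chr3:17971950-18143338, and no RefSeq promoter was matched to it. Its counts were 5, 4, 12, 3 and 11 in controls 1 to 5 and 36, 1, 36, 39 and 31 in ox-LDL replicates 1 to 5. Except for replicate 2, with its single count, the ox-LDL libraries were above every control. The means were 0.319 ± 0.169 and 1.42 ± 0.758 CPM (SD, n = 5 each), with a log2 fold change of 2.15 (SE 0.597, 95% interval 0.85 to 3.45, edgeR adjusted p = 0.0198). Without ox-LDL replicate 2 the log2 fold change was 2.39 (adjusted p = 7.26e-04), which passes the threshold. Ox-LDL replicate 2 also had the lowest summed level of mesothelial and stromal markers in its group, 12.6 CPM, where ox-LDL replicates 1, 3, 4 and 5 had 42.4 to 84.5 CPM and controls had 5.47 to 26.1 CPM, with 7 of 7 markers counted. The markers did not all move together. Col1a1, Col1a2, Pdgfra and Wt1 were lowest in replicate 2 among the ox-LDL libraries, while Msln and Krt19 were not. Upk3b went the other way between the groups, with 6 to 17 counts in controls and 0 to 5 in the ox-LDL group. Replicate 2 also stood apart by composition, as given above. The part of these cells or of that composition in the Cyp7b1 values was not tested.

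Hsd3b7, the enzyme that oxidizes the products of Cyp7b1, was the member called higher. Hsd3b7 (NCBI gene 101502) is annotated on the plus strand of mm9 at chr7:134929122-134947316, where it overlaps Setd1a on the same strand. Its levels were 33.5, 48.1, 41.2, 24.4 and 41.8 CPM in controls 1 to 5. In ox-LDL replicates 1 to 5 its levels were 92.8, 91.6, 126, 147 and 115 CPM. The lowest ox-LDL library was well above the highest control. The mean rose from 37.8 ± 9.08 to 115 ± 23.5 CPM (SD, n = 5 each), 3.03-fold, with a log2 fold change of 1.60 (SE 0.223, 95% interval 1.11 to 2.09, edgeR adjusted p = 3.40e-04). The overlapping Setd1a had a mean of 9.16 CPM in controls and 16.3 CPM in the ox-LDL group (log2 fold change 0.83, edgeR adjusted p = 0.0885), far below Hsd3b7 in level. How reads in the shared stretch were assigned is not given in the sources used here.

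The log2 ratio of Cyp7b1 to Hsd3b7, which stand for consecutive steps, was -6.78 ± 0.637 in controls and -6.64 ± 1.36 in the ox-LDL group (SD, n = 5). The difference of 0.14 was within the spread (exact permutation p = 0.865, adjusted 0.865). Ox-LDL replicate 2 decided this value. The ratio was -9.06 there, against -6.27 to -5.85 in replicates 1, 3, 4 and 5, and leaving it out gave a difference of 0.74 (exact permutation p = 0.0476, not adjusted).

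Gpr183, the receptor for the ligand that Ch25h and Cyp7b1 make together, showed the largest fold change of the 6 genes tested. Gpr183 (NCBI gene 321019) lies on the minus strand of mm9 at chr14:122351553-122364415, inside the span of Ubac2, which is read from the other strand. Its counts were 100, 166, 145, 109 and 150 in controls 1 to 5 and 12, 5, 5, 5 and 7 in ox-LDL replicates 1 to 5. Controls were close to one another, and every ox-LDL library was far below them. The mean fell from 6.19 ± 0.653 to 0.370 ± 0.124 CPM (SD, n = 5 each), 16.6-fold lower, with a log2 fold change of -4.05 (SE 0.293, 95% interval -4.69 to -3.41, edgeR adjusted p = 5.62e-06). Ubac2 had means of 21.2 and 24.8 CPM (log2 fold change 0.23, adjusted p = 0.319).

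Because B cells and dendritic cells carry Gpr183, their markers are given beside it. B cell markers (6 of 6 with counts) summed to 1.13 to 2.85 CPM in controls and 0.811 to 3.73 CPM in the ox-LDL group. Dendritic cell markers (5 of 5 with counts) summed to 1.35 to 2.74 CPM in controls and 2.23 to 4.04 CPM in the ox-LDL group. Both sums overlapped between the groups, and neither was lower throughout the ox-LDL group. The dendritic cell markers went in different directions. Cd209a had 3 to 38 counts in controls and 0 to 1 in the ox-LDL group, Clec9a had 5 to 11 and 16 to 42, and Zbtb46 had 10 to 12 and 7 to 46. Flt3 had 0 to 2 and 0 to 5 counts, and Xcr1 had 0 to 2 and 0 to 8. The resident peritoneal macrophage markers (4 of 4 with counts) summed to 5.11 to 9.90 CPM in controls and 2.84 to 6.42 CPM in the ox-LDL group. These markers also went in different directions. Timd4 had 0 to 5 counts in controls and 18 to 43 in the ox-LDL group, and Gata6 had 14 to 41 and 4 to 31. Icam2 had 75 to 133 and 21 to 72 counts, and Selp had 3 to 33 and 0 to 3. The part of any of these cells in the Gpr183 values was not tested.

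Osbpl8 and Osbp, the lipid transfer proteins, were not called in either direction. Osbpl8 (NCBI gene 237542) lies on the plus strand of mm9 at chr10:110601858-110734303 and Osbp (NCBI gene 76303) on the plus strand at chr19:12040334-12068595. Osbpl8 levels were 280, 348, 337, 265 and 358 CPM in controls 1 to 5 and 236, 141, 294, 248 and 438 CPM in ox-LDL replicates 1 to 5. Its ox-LDL libraries were both the lowest and the highest of the 10. The means were 318 ± 42.4 and 271 ± 108 CPM (SD, n = 5 each), with a log2 fold change of -0.23 (SE 0.276, 95% interval -0.83 to 0.37, edgeR adjusted p = 0.591). Osbp levels were 15.5, 25.3, 23.7, 17.6 and 26.6 CPM in controls 1 to 5 and 34.7, 18.1, 28.0, 29.0 and 29.5 CPM in ox-LDL replicates 1 to 5. All ox-LDL libraries but replicate 2 were above every control. The means were 21.7 ± 4.91 and 27.9 ± 6.04 CPM, with a log2 fold change of 0.36 (SE 0.216, 95% interval -0.11 to 0.83, edgeR adjusted p = 0.246). Without ox-LDL replicate 2 the Osbp value was 0.44 (edgeR adjusted p = 0.0634). It was 0.54 (edgeR adjusted p = 0.0333) without both ox-LDL replicate 2 and control replicate 5.

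Within libraries the balance of these 2 family members differed. The log2 ratio of Osbpl8 to Osbp was 4.17, 3.78, 3.83, 3.91 and 3.75 in controls 1 to 5 and 2.76, 2.96, 3.39, 3.10 and 3.89 in ox-LDL replicates 1 to 5. Ox-LDL replicate 5 lay among the controls and the other 4 ox-LDL libraries lay below them. The means were 3.89 ± 0.169 and 3.22 ± 0.438 (SD, n = 5), a difference of -0.67 (exact permutation p = 0.0317, adjusted over 3 ratios 0.0476). Without control replicate 1 the difference was -0.60 (exact permutation p = 0.0556, not adjusted). Both are long transcripts, with implied lengths of 6442 and 3937 bases, and libraries differed in how they recovered long genes. Genes over 4000 bases lay at a median of -0.37 from their mean over libraries on the same log2 scale in ox-LDL replicate 2, -0.36 in control 1 and -0.24 in control 4. The median was 0.23, 0.26 and 0.34 in ox-LDL replicates 1, 3 and 4, and -0.002 to 0.05 in the remaining libraries. The part of this trend in the ratio was not tested. With each library's trend on length removed, the log2 fold changes were -0.45 for Osbpl8 (edgeR adjusted p = 0.137) and 0.30 for Osbp (adjusted p = 0.0924).

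Levels of different genes were compared per length, with the deposited FPKM (fragments per kilobase of transcript, scaled to sequencing depth). In controls the order was Osbpl8 (54.3 ± 13.8 FPKM), Hsd3b7 (24.3 ± 7.82), Cyp27a1 (6.92 ± 1.72), Osbp (5.93 ± 1.81), Gpr183 (2.38 ± 0.483), Cyp7b1 (0.174 ± 0.108) and Ch25h (0.0320 ± 0.0522), each a mean with its SD over 5 libraries. Cyp27a1 and Osbp overlapped, as did Cyp7b1 and Ch25h, and the other neighbours did not. In the ox-LDL group the order was Hsd3b7 (65.8 ± 24.1 FPKM), Osbpl8 (40.0 ± 16.3), Osbp (6.95 ± 3.09), Ch25h (1.28 ± 0.697), Cyp27a1 (1.23 ± 0.548), Cyp7b1 (0.726 ± 0.405) and Gpr183 (0.122 ± 0.0563). Hsd3b7 and Osbpl8 overlapped there, as did each pair of neighbours from Ch25h down to Gpr183. Gpr183 thus stood at rank 5 in controls and rank 7 in the ox-LDL group, and Ch25h at rank 7 and rank 4. All 7 ranks in each group were the same when CPM divided by gene length was used. These lengths were derived from the FPKM themselves, so this agreement is no separate check of the ranks.

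**Figure D3:**
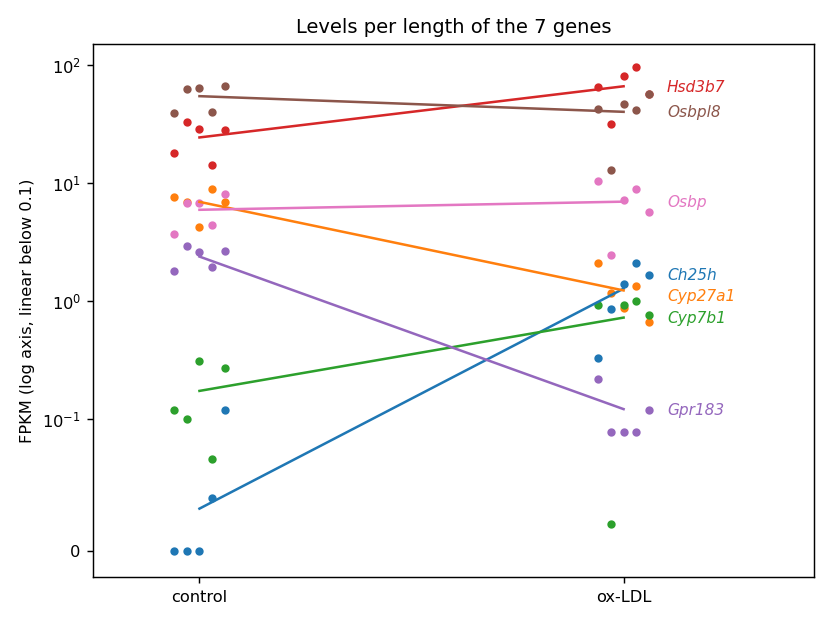
Deposited FPKM of the 7 genes in controls and in the ox-LDL group (vertical axis, logarithmic above 0.1 and linear below). Points are libraries and lines join the group means (n = 5 each). The lines of Ch25h and Cyp27a1 meet near 1.28 and 1.23 FPKM in the ox-LDL group, and Gpr183 drops from 2.38 to 0.122 FPKM.

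The wider lists held 55 other genes of oxysterol metabolism, transport and sensing, of which 51 were matched to a row and 41 passed the filter. Among the 41, 2 were called higher, 3 were called lower and 36 were not called, and their median log2 fold change was 0.00. Over all genes tested, 9.4% were called higher and 5.35% lower, and the median was 0.10. These lists were chosen with earlier results of these data known, so their counts are a description.

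Among the other oxysterol and bile acid enzymes, 8 of 18 were tested. Ebp was called lower and the remaining 7 were not called. Ebp, a sterol isomerase of cholesterol synthesis that also forms part of an oxysterol-binding complex with Dhcr7, fell from 52.0 ± 4.30 to 31.1 ± 5.39 CPM (SD, n = 5 each; log2 fold change -0.74, SE 0.161, edgeR adjusted p = 0.00524). It lost its call in 9 of 24 alternatives, with adjusted p up to 0.0192. The list's median log2 fold change was -0.73. Hsd17b4, a peroxisomal enzyme of side-chain shortening, had a log2 fold change of -0.74 (adjusted p = 0.0204), and Soat1, which esterifies cholesterol and oxysterols, had 0.06 (adjusted p = 0.897). Cyp7a1, Cyp46a1, Cyp11a1, Hsd11b1, Slc27a5 and Baat were under the filter. Cyp7a1, the hepatic enzyme that starts the classic bile acid pathway, had no count in any control. Cyp8b1, Akr1d1, Acox2 and Slc27a2 were not matched to a row and were not analysed here.

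Electron donors and cholesterol delivery proteins were all tested, 8 of 8. Fdx1 and Fdxr, which pass electrons to mitochondrial enzymes such as Cyp27a1, were not called, with log2 fold changes of -0.27 (95% interval -0.97 to 0.44) and -0.26 (95% interval -0.88 to 0.37). Por, the electron donor of the endoplasmic reticulum, had 1.05 (adjusted p = 0.0485). Tspo, a protein of the outer mitochondrial membrane that binds cholesterol, rose from 99.1 ± 20.1 to 383 ± 249 CPM (log2 fold change 1.95, SE 0.373, edgeR adjusted p = 0.00250). Its values were 135, 92.7, 87.8, 90.9 and 89.3 CPM in controls and 280, 809, 208, 222 and 398 CPM in ox-LDL replicates. Replicate 2 was the highest of these, and without it the log2 fold change was 1.44 (adjusted p = 4.96e-04). Stard4, a cytosolic sterol carrier, fell from 33.0 ± 9.48 to 7.54 ± 2.17 CPM (log2 fold change -2.12, SE 0.264, edgeR adjusted p = 1.65e-04). The list's median was -0.04.

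Of the 10 other OSBP-related proteins, 7 were tested. Osbpl3, which encodes ORP3, a lipid transfer protein linked to cell adhesion, rose from 5.90 ± 2.25 to 72.6 ± 23.1 CPM (log2 fold change 3.62, SE 0.356, edgeR adjusted p = 3.66e-05). Its values were 3.26, 8.00, 7.44, 3.66 and 7.12 CPM in controls and 76.7, 32.1, 87.9, 86.7 and 79.7 CPM in ox-LDL replicates. Every ox-LDL library was several times the highest control, and replicate 2 was the lowest of them. Without ox-LDL replicate 2 the log2 fold change of Osbpl3 was 3.77 (edgeR adjusted p = 2.91e-06). The remaining 6 were not called and had log2 fold changes of -0.62 (Osbpl2) to 0.42 (Osbpl7), and the list's median was 0.31. Osbp2, Osbpl6 and Osbpl10 were under the filter. The partners of these proteins (Vapa, Vapb, Pi4ka, Pi4kb, Sacm1l and Arf1), which anchor them to the endoplasmic reticulum, make or remove the phosphoinositide they carry, or, for Arf1, help recruit Osbp to the Golgi, were all tested, 6 of 6, and none was called at an adjusted p below 0.01. DESeq2 called 2 of them, as did edgeR with the length trend removed, and edgeR without ox-LDL replicate 1 called 1. With all libraries, 2 had an unadjusted p below 0.05, namely Vapa with a log2 fold change of 0.64 (adjusted p = 0.0193) and Vapb with -0.53 (adjusted p = 0.0354).

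Among the other oxysterol sensors, 12 were tested, of which 1 was called lower and 11 were not called. Insig1, which holds the SREBP-activating complex in the endoplasmic reticulum when it binds oxysterol, fell from 146 ± 40.2 to 42.6 ± 8.76 CPM (log2 fold change -1.78, SE 0.253, edgeR adjusted p = 3.94e-04). Its values were 173, 152, 167, 164 and 75.7 CPM in controls and 50.6, 35.2, 47.9, 48.1 and 31.2 CPM in ox-LDL replicates. Control 5 was the lowest control and still above every ox-LDL library. Without control 5 the log2 fold change of Insig1 was -1.95 (edgeR adjusted p = 1.16e-04). Its homologue Insig2 had a log2 fold change of 0.02 (95% interval -0.37 to 0.41). The liver X receptors, nuclear receptors that oxysterols activate, were not called, with -0.99 for Nr1h3 (adjusted p = 0.0559) and 0.63 for Nr1h2 (adjusted p = 0.0557). Npc1, the lysosomal cholesterol exporter, had 0.76 (adjusted p = 0.0602), and the list's median was 0.14.

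**Figure D4:**
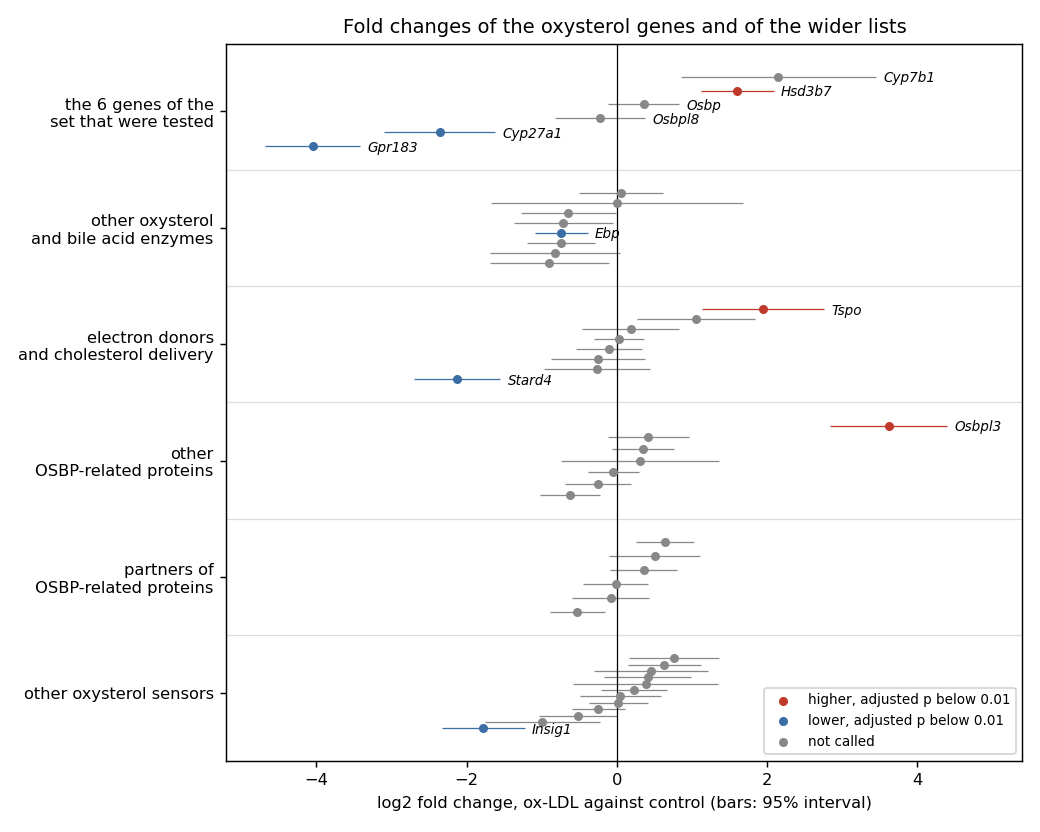
Log2 fold changes of the ox-LDL group against controls (horizontal axis) for the 6 oxysterol genes tested and for the wider lists, each with its 95% interval. Colours mark the calls at an adjusted p below 0.01. Gpr183 and Cyp27a1 lie lowest among the 6 genes at -4.05 and -2.36, and Osbpl3 has the highest value of the wider lists at 3.62.

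For each gene tested, the 2 other genes with the most similar pattern were found by the mean absolute difference, over 10 libraries, of log2(CPM + 1) after subtraction of its control mean. Smaller values mean a closer match, and weakly changed genes match more closely. Gpr183 was closest to Npas4 (0.183) and Dok2 (0.190), Cyp27a1 to Gm40315 (0.140) and Fance (0.156), and Hsd3b7 to Rmdn3 (0.191) and Scarf1 (0.200). Cyp7b1 was closest to Rbfox2 (0.128) and Ccdc171 (0.132), Osbpl8 to Atic (0.0724) and Atl3 (0.118), and Osbp to Ddx17 (0.0595) and Tstd2 (0.0635). A close match by this measure need not mean a like fold change, since the 1 added to CPM shrinks differences at low levels. Npas4 had a log2 fold change of -6.43 and Dok2 -2.37, against -4.05 for Gpr183. Gm40315 had -4.26 and Fance -2.16, against -2.36 for Cyp27a1. Dok2 had means of 105 CPM in controls and 20.3 CPM in the ox-LDL group, and Scarf1, a scavenger receptor, had 5.48 and 23.8 CPM. In none of these genes was a shared function examined.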

How the data were processed

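RNA was sequenced on a BGISEQ-500. The submitters' notes name FastQC, HISAT2 2.0.5, SAMtools 1.4, StringTie 1.3.3.13 and mm9. The counting step and its strand setting are not given in the sources used here. The authors deposited 1 table of estimated counts, in which 13.6% of values were not whole. The authors also deposited 1 table per library of normalized values, read here as FPKM, that is, counts scaled to library depth and gene length. Their headers name no unit, and the values matched counts divided by a single length per gene to a median deviation of 0.393% over 2583 genes.

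Circular RNA rows (9788 of 39488, holding 1.44 to 2.24% of counts) were left out. Counts were rounded to whole numbers, filtered with filterByExpr, scaled by TMM and tested with edgeR 4.0.16 (glmQLFit, robust) in R 4.3.3 with Benjamini-Hochberg adjustment. A trend of counts on gene length was not corrected in these values. CPM are TMM-normalized, except for marker and reference sums, which used library size alone. Single values and ratios were compared by two-sided exact permutation tests, whose smallest p with 5 libraries against 5 is 0.00794. DESeq2 1.42.0 and limma 3.58.1 served as alternatives, along with other scalings, filters and library sets. Scripts were tested on simulated data.

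All 7 genes are named. In the wider lists each gene called is named, with genes under the filter other than 1 that is not reported here, and others only as examples beside them; single cell type markers were added after their values were seen. The genes and lists were chosen with earlier results of these data known. Controls 1 to 4 each correlated best with an ox-LDL library of another number, and control 5 with the one of its own number. The correlations of same-numbered libraries were 0.02, -0.27, 0.44, -0.28 and 0.41. Among the neutrophil markers, Retnlg had 41 counts in control 5, 27 in its same-numbered partner and 0 to 2 elsewhere. For S100a9 the counts were 8, 5 and 0. S100a8, Mmp8 and Cxcr2 did not set both libraries apart. Whether the libraries numbered 5 share a source was not tested. Positions are from the mm9 annotation, and promoters are from RefSeq on GRCm38.p6.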

Additional observations from a re-analysis of the deposited data

Results flagged for a closer look

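In 30 groups of 5 libraries, the gap between the most extreme library and its nearest neighbour was divided by the range of the group. The limit of 0.71 was exceeded by 5 groups, against 1.5 given by chance if values are normal and groups independent. The Cyp7b1 level and its ratio to Hsd3b7 share counts, so these groups were not independent, and normality was not examined. Ox-LDL replicate 2 accounted for 3 of the 5 groups. For Cyp7b1 the share was 0.831, with 0.0856 CPM in that library and 1.57 to 1.87 CPM in the other ox-LDL libraries. For the log2 ratio of Cyp7b1 to Hsd3b7 it was 0.871, with -9.06 against -6.27 to -5.85. For Osbpl3 it was 0.800, with 32.1 CPM against 76.7 to 87.9 CPM. Among controls, Tspo in replicate 1 had a share of 0.896, with 135 CPM against 87.8 to 92.7 CPM, and Insig1 in replicate 5 had 0.785, with 75.7 CPM against 152 to 173 CPM. The causes were not tested.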

How the results depend on the processing

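Cyp27a1 kept its direction and its call in 25 of 25 alternatives (log2 fold change -2.61 to -1.83), and Gpr183 in the 24 that tested it (-4.24 to -1.58, the smallest on the log2(FPKM + 1) scale). Hsd3b7 kept its call in 24 of 25 and missed it in limma on log2(FPKM + 1) without a filter (1.37, adjusted p = 0.0247). Cyp7b1 passed at an adjusted p below 0.05 (2.15), in DESeq2 (2.14, adjusted p = 0.00224), and without both ox-LDL replicate 2 and control replicate 5 (2.59). When each library was left out, its value was 1.97 to 2.39, and its adjusted p over all alternatives was 7.26e-04 to 0.115. The count of the 7 genes called higher became 2 at adjusted p below 0.05, in DESeq2, without the filter and without both libraries, and was 1 to 2 when single libraries were left out, where Ch25h or Cyp7b1 was the added gene. With at most 3 counts in any control, Ch25h passed the filter in those fits through its ox-LDL libraries alone. Its calls there are therefore no separate evidence of a difference. The count called lower was 1 when 10 counts were required in every library, which removed Gpr183 from the test.

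In the wider lists, 4 genes were called higher at adjusted p below 0.05 and without both libraries. The number called lower was 6 at 0.05 and in DESeq2, 5 on both filtered FPKM scales, 7 with the length trend removed and 2 to 5 when each library was left out, with 5 without ox-LDL replicate 2. The difference in the Cyp7b1 to Hsd3b7 ratio reversed with FPKM (-0.85, exact permutation p = 0.00794), where 1 was added to Cyp7b1 values near or below 1, and ranged from -0.12 to 0.74 over leave-outs, turning to -0.12, -0.06 and -0.05 without control 2, ox-LDL 1 and ox-LDL 5. That for Osbpl8 to Osbp ranged from -0.84 to -0.56 over leave-outs. Its unadjusted exact permutation p was above 0.05 without control 1 alone (-0.60). It was 0.0397 without control 3 and 0.0476 without control 4. These leave-out p-values were not adjusted over the 3 ratios.

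Over all genes, 1189 were called higher and 677 lower. These became 2045 and 1320 at 0.05, 704 and 583 with library size alone, 555 and 750 on log2(FPKM + 1), 543 and 700 on log2(FPKM + 0.1), 472 and 555 on FPKM unfiltered, 1765 and 1244 in DESeq2, 1734 and 1157 with the length trend removed, and 1843 and 1483 without both libraries. Leave-outs gave 826 to 1755 higher and 436 to 1502 lower, the highest of both without ox-LDL replicate 2. Library size alone moved the median log2 fold change of all genes from 0.10 to -0.09. With a replicate block, 885 genes were called higher and 549 lower, Cyp7b1 was 2.01 (adjusted p = 0.0254), and no call among the 7 genes changed. The causes of these changes were not tested. Depth limits Ch25h and Cyp7b1, whose lowest libraries held 0 and 1 count.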
